A study of Mus musculus with 5 samples.

Results

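The antigen receptor loci are the 6 stretches of the mouse genome that hold the gene segments of immunoglobulins and T cell receptors. They were taken here as fixed windows in the mm9 assembly, with all covered CpGs inside a window as members and both strands of a CpG merged. The windows are Igh at chr12:114490000-117260000, Igk at chr6:67500000-70700000, Igl at chr16:19020000-19270000, Tcra/Tcrd at chr14:53000000-54860000, Tcrb at chr6:40830000-41520000 and Tcrg at chr13:19260000-19460000. Together they span 8.97 Mb and held 899 of the 1030056 autosomal CpGs covered in every library. Igk had 370 of these CpGs, Igh 216, Tcra/Tcrd 200, Tcrb 58, Igl 28 and Tcrg 27. In at least 1 library 1057 window CpGs were covered, and those missing from any library were left out.

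Antigen receptor genes are not whole in the germ line. In developing B and T cells the Rag1 and Rag2 recombinase cuts beside variable (V), diversity (D) and joining (J) segments, and repair by end joining links the chosen segments next to a constant (C) region. Igh encodes the immunoglobulin heavy chain, Igk and Igl the kappa and lambda light chains, and Tcra, Tcrb, Tcrg and Tcrd the chains of the T cell receptors. Stem and progenitor cells come before most of these steps, and germline segments that are not in use are as a rule methylated and closed, while enhancers and promoters near the J and C segments open early.

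The assay was enhanced reduced representation bisulfite sequencing of LSK cells, the Lin- Sca1+ cKit+ fraction of bone marrow that holds stem cells and multipotent progenitors. The libraries were 2 targeted and 3 wild-type libraries from C57BL/6 mice. The targeted animals carry a germ line allele with 1 targeted gene, not reported here; their titles read KO and their genotype label +/-, so the number of targeted alleles is not stated. The series' design text gives an age of 12 months for the animals of the transcriptome samples; for these libraries the labels give no age, no sex and no word on whether each library is another animal. The spread behind the p-values is that between libraries and may be technical.

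Window CpGs had a median coverage of 82 (targeted library 1) and 79 reads (targeted library 2), against 73, 79 and 71 in wild type. Elsewhere on the autosomes these medians were 88 and 113 for the targeted and 104 to 110 for the wild-type libraries. Targeted library 1, the library with the lowest coverage outside the windows, also had the highest mean methylation there, 35.0% against 34.3% in targeted library 2 and 34.1% to 34.2% in wild type. Its part in the group differences below was not tested, and values without it are given where the direction turns or the size moves. Because MspI cuts at CCGG, the assay reads CpG-rich fragments, and the windows had 100.2 covered CpGs per Mb against 428 per Mb on the other autosomes. The longest stretch without a measured CpG was 241 kb, in Igk. No window CpG lay in a 1000 bp tile with 30 or more covered CpGs, a class that holds 39.1% of the other CpGs.

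The promoters that could be placed nearest to the windows were unmethylated. RefSeq promoter sequences (300 bases around the start, GRCm38.p6) were placed on the mm9 positions by the spacing of their CpGs, and none was placed inside a window. The nearest placed promoter on each side of each window lay 13.6 to 871 kb outside it. Their mean methylation ran from 0% to 3.55% over these 12 promoters and 5 libraries. The highest was that of Amph, 220 kb below Tcrg, at 3.55% and 3.13% in the targeted libraries, against 1.15%, 1.10% and 0.597% in wild type. Amph is shown as the extreme of the 12. No CpG of its promoter was called different between the groups, and its mean was not tested. The promoters closest to Tcra/Tcrd, Tcrb and Igk and the one below Igh are given as sequence, since they are the placed promoters nearest to those windows on one side. Abhd4 encodes a lipid hydrolase, Ephb6 an Eph receptor without kinase activity, Rpia an enzyme of the pentose phosphate pathway and Tmem121 a membrane protein. Each runs 5′ to 3′ on the gene's strand, and capitals mark CpGs that were measured here.
Abhd4: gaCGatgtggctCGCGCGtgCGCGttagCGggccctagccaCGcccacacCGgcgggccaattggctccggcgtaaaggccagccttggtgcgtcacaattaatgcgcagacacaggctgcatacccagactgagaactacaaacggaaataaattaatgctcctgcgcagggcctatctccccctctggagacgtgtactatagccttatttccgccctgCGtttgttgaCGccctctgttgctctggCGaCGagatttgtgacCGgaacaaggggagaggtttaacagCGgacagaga
Ephb6: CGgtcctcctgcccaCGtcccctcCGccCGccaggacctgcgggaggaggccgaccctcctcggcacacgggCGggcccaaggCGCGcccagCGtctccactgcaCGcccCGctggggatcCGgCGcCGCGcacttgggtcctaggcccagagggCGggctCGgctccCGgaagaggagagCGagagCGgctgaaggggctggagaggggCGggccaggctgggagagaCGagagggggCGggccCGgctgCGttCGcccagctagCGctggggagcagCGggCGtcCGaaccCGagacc
Rpia: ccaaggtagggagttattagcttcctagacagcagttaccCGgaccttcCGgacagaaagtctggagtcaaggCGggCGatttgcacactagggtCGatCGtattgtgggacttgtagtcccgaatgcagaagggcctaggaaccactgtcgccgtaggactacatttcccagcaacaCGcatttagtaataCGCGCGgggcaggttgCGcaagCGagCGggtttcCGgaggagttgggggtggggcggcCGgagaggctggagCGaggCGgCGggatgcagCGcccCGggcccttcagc
Tmem121: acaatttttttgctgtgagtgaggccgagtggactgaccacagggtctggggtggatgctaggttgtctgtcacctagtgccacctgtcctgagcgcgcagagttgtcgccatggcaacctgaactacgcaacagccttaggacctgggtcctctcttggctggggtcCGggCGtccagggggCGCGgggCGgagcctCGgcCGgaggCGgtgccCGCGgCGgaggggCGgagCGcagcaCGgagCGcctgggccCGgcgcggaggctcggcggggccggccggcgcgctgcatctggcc

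In targeted libraries 1 and 2 the 15 CpGs of the Abhd4 promoter that all libraries cover, 13.6 kb above Tcra/Tcrd, averaged 0.167% and 0.0549%. The wild-type libraries had 0.167%, 0.518% and 0.0383% there. The Ephb6 promoter, 35.3 kb above Tcrb, had 0.598% and 0.0881% in the targeted libraries, against 0.0439% to 0.130% in wild type over 30 CpGs. The Rpia promoter, 42.1 kb above Igk, stayed at or under 0.205% in every library over 20 CpGs, and the Tmem121 promoter, 65.8 kb below Igh, at or under 0.749% over 16 CpGs. No CpG of these 4 promoters was called different between the groups. The promoters placed nearest to the loci were thus close to 0%, whereas most CpGs inside the windows were highly methylated. A promoter was placed only with at least 6 measured CpGs, so CpG-poor promoters near the loci could not be read. The contrast therefore covers CpG-rich promoters only.

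Across the 6 windows the mean methylation of a CpG was 88.2% and 87.1% in the targeted libraries, against 86.9%, 86.5% and 87.1% in wild type. The median CpG stood at 93.9%. On the other autosomes the mean was 35.0% and 34.3% in the targeted libraries, against 34.2%, 34.1% and 34.1% in wild type. The windows were therefore higher in 5 of 5 libraries, by 52.8 percentage points (points below) ± 0.288 (SD, n = 5). An exact sign-flip permutation test over libraries gave p = 0.0625, the smallest it can give with 5 libraries. Of the window CpGs, 773 were over 80%, 92 between 20 and 80% and 34 under 20%. That is 86.0%, 10.2% and 3.78%, against 32.1%, 6.67% and 61.2% of the other autosomal CpGs.

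The loci also exceeded other CpGs in the same classes of covered CpGs per tile. When the other CpGs were weighted to the density make-up of the windows, their mean was 67.7%, and the loci were still 19.4 points ± 0.216 (SD, n = 5) above them. The same exact sign-flip permutation test gave p = 0.0625, and 0.0625 after Benjamini-Hochberg adjustment over the 7 comparisons of this kind. In tiles with 1 to 2 covered CpGs the loci averaged 89.4% and the other autosomes 82.9%. In tiles with 3 to 5 the means were 89.3% in the loci and 78.9% elsewhere, and with 6 to 9 CpGs 90.9% and 65.2%. The gap was widest in tiles with 10 to 29 CpGs, at 73.6% in the loci and 18.4% elsewhere. Only 142 window CpGs lie in such tiles. That class is wide, and density inside it was not matched between the loci and elsewhere. Density here counts covered CpGs, not all CpGs of the sequence. The 4493 CpGs within 500 kb of the windows averaged 26.8%, but these were not weighted by density.

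**Figure D1:**
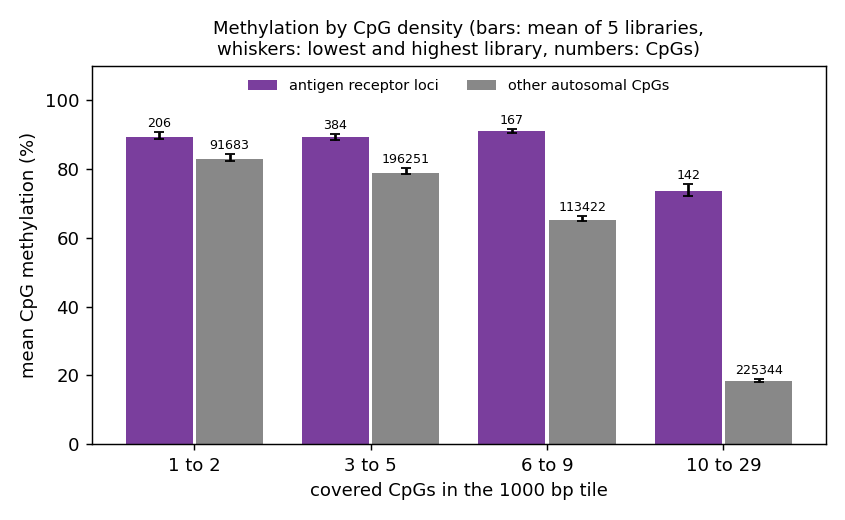
Mean CpG methylation (%, y axis) in antigen receptor loci and in other autosomal CpGs, by the number of covered CpGs in the 1000 bp tile (x axis). Bars are means of 5 libraries, whiskers the lowest and highest library, and printed numbers count CpGs; the loci stay at 89.4%, 89.3% and 90.9% in the 3 sparser classes while the other CpGs fall to 65.2%.

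Along the windows the methylated state was broken at few places. Of the bins of 100 kb with at least 5 CpGs, the median bin was at 92.6% in Igh, 92.8% in Igk, 94.0% in Tcra/Tcrd and 91.9% in Tcrb. The lowest bins were 29.9% in Igh, 38.7% in Tcrb, 75.1% in Tcra/Tcrd and 79.8% in Igk. Igl and Tcrg, with 2 such bins each, had none under 86.7%. Of 139 tiles of 1000 bp with at least 3 CpGs, 117 were over 80%, 20 between 20 and 80% and 2 under 20%. That is 84.2%, 14.4% and 1.44%, against 57.2%, 13.3% and 29.5% of the tiles elsewhere.

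**Figure D2:**
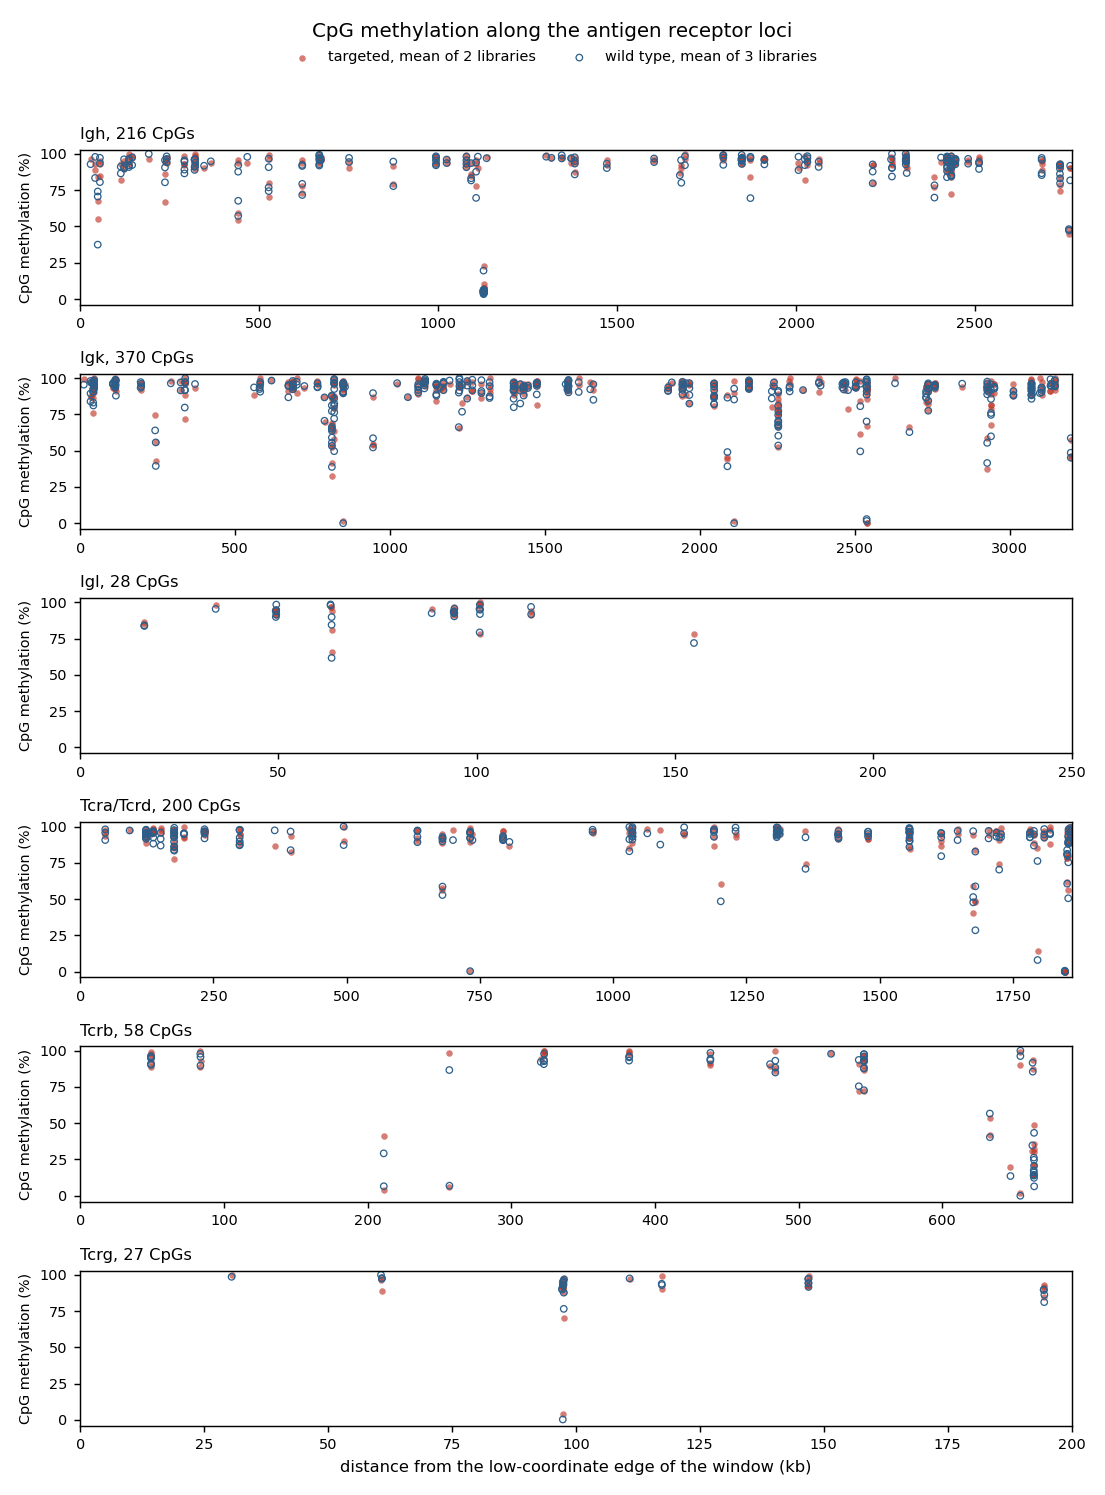
CpG methylation (%, y axis) along each antigen receptor window, by distance from its low-coordinate edge (kb, x axis). Filled points are means of the 2 targeted libraries and open points means of the 3 wild-type libraries; most CpGs lie near the top, and clusters near 0 appear inside Igh and at the high end of Tcrb and Tcra/Tcrd.

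The lowest stretch of the heavy chain locus was a CpG-dense tile at chr12:115617001-115618000. In the order of RefSeq (GRCm38.p6) the 8 C genes of Igh come first from the low-coordinate end, then 4 J, 20 D and 183 V segments, pseudogenes included. The tile lies 1127 kb from that end. It held 13 CpGs, from position 115617024 to 115617173, and had 8.76% and 3.28% in the targeted libraries. The wild-type libraries had 3.77%, 4.90% and 8.33% there, on 1404 to 1911 summed CpG reads per library. Targeted library 1 and wild-type library 3 were high and the other 3 low, so the groups overlapped. Of its CpGs, 12 were under 20% and the first, at the low end, averaged 20.8%. An annotation of mm9 was not used here, so the tile is not assigned to a segment. Outside this tile the other 203 CpGs of Igh averaged 92.7% and 91.3% in the targeted libraries and 90.8% to 91.7% in wild type.

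At the high end of the Tcra/Tcrd window a tile was unmethylated in every library. It lies at chr14:54847001-54848000, 12 kb below the window's edge. RefSeq's order ends this locus, after 136 V segments and the D and J segments, with the constant gene Trac. No methylated read was counted at its 5 CpGs in targeted library 1 or 2, on 233 and 361 summed CpG reads. A read over several of these CpGs counts once for each, so limits are given for a single CpG. The CpG with the fewest reads, at 54847400, allows up to 7.89% and 5.77% in these libraries. Wild-type library 1 had 1 methylated read of 274 summed CpG reads, or 0.365%, and wild-type libraries 2 and 3 had none of 273 and 490. For wild-type libraries 2 and 3 the CpG at 54847400 allows up to 6.52% and 3.41%. All libraries were thus alike within these limits, which, as all intervals here, cover counting error only. Only 4 kb farther on, the tile at chr14:54851001-54852000 had 81.9% and 73.6% in the targeted libraries, against 77.0%, 78.8% and 75.1% in wild type. The next named tile, at chr14:54853001-54854000, had 79.1% and 81.3% against 79.8%, 75.2% and 79.0%.

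The beta chain locus was the least methylated of the 6. Its 58 CpGs averaged 73.4% and 70.8% in the targeted libraries, against 69.8%, 70.2% and 70.8% in wild type. Its lowest tile lay at chr6:41493001-41494000, 26 kb below the high end, where RefSeq's order has the D, J and C clusters and, last, the V segment Trbv31. Its 10 CpGs had 33.0% and 18.6% in the targeted libraries, against 17.5%, 24.0% and 19.7% in wild type. Targeted library 1 was above all others, with a 95% Wilson interval of 29.7% to 36.4%, while targeted library 2 lay inside the wild-type range. That interval is taken on summed CpG reads and is too narrow where a read covers several CpGs. The difference of 5.35 points had an edgeR quasi-likelihood p of 0.249, adjusted p = 0.847. Without targeted library 1 it was -1.86 points. Within the tile the CpGs differed among themselves. The CpG at 41493936 was lowest, at 20.5% and 8.54% in the targeted libraries, against 1.96%, 12.5% and 4.96% in wild type. The CpG at 41493873 was highest, at 54.1% and 44.1% in the targeted libraries, against 29.6%, 51.6% and 48.8% in wild type. The remaining 48 CpGs of Tcrb averaged 82.2% and 81.7% in the targeted libraries, against 80.8%, 80.1% and 81.6% in wild type.

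**Figure D3:**
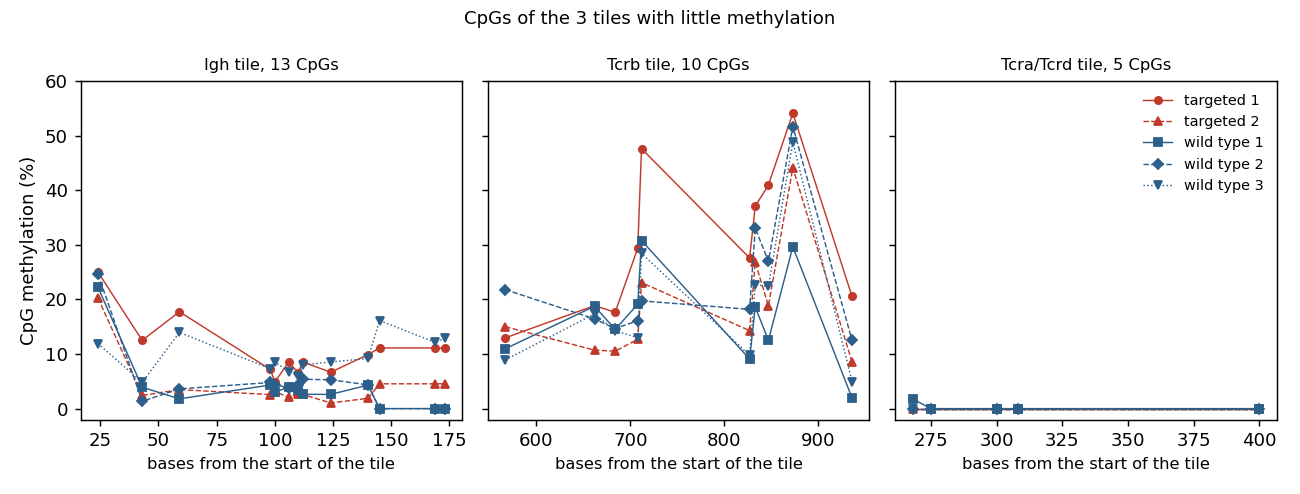
Methylation (%, y axis) of each CpG in the least methylated tile of Igh, Tcrb and Tcra/Tcrd, by bases from the start of the tile (x axis); each line is 1 library. The Tcra/Tcrd tile is at or near 0 in every library, the Igh tile mostly under 20%, and the Tcrb tile ranges up to 54.1%, with targeted library 1 on top at 9 of its 10 CpGs.

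The kappa locus had no tile under 20%. In RefSeq's order its 162 V segments come first, followed by 5 J segments and Igkc at the high end. The largest partly methylated tile, at chr6:70038001-70039000 with 14 CpGs, had 72.8% and 70.0% in the targeted libraries, against 72.8%, 74.6% and 79.97% in wild type. At chr6:69753001-69754000 (11 CpGs) the targeted libraries had 75.2% and 74.9% and the wild-type libraries 65.8%, 70.9% and 76.6%. At chr6:68312001-68313000 (11 CpGs) the values were 72.3% and 62.0% in the targeted libraries, against 65.7%, 65.2% and 73.5% in wild type. The groups overlapped at both tiles of 11 CpGs. At the tile of 14 CpGs the targeted libraries lay below wild type, targeted library 1 by less than the rounding shows, with an adjusted p of 0.843 by edgeR. Without the strand positions 46 to 50 bases downstream of another CpG, at read ends, that tile was not partly methylated: its remaining 11 CpGs had 93.6% and 89.3% in the targeted libraries, against 92.1%, 94.6% and 93.1% in wild type, so the groups overlapped, and the difference was -1.78 points. The tiles at chr6:69753001-69754000 and chr6:68312001-68313000 stayed in the partly methylated range, at 72.9% and 76.5% as means over libraries. The lambda and gamma loci had 4 testable tiles each, none under 81.8% as a mean over libraries. The largest gamma tile, chr13:19357001-19358000 with 11 CpGs, had 81.7% and 78.3% in the targeted libraries, against 80.1%, 81.7% and 87.3% in wild type, and without read-end positions it averaged 91.0%.

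Many isolated low CpGs of the loci sat at the far end of a read. The reads were 50 bases long and began at MspI sites, and the fragments were end-repaired, a step that fills the cut ends with unmethylated cytosine. On each strand, positions were sorted by their distance downstream of the farthest covered CpG within reach, where that CpG was over 80%. Of window positions 46 to 50 bases downstream, 26 of 79 (32.9%) were under 20%, against 0 of 514 at 2 to 45 bases. On the other autosomes the shares were 22.5% of 31383 and 0.243% of 203274. The share at 46 to 50 bases was 31.6% and 34.2% in the targeted libraries, against 34.2%, 34.2% and 32.1% in wild type, so it did not separate the groups. The part of end repair in these values was not tested.

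**Figure D4:**
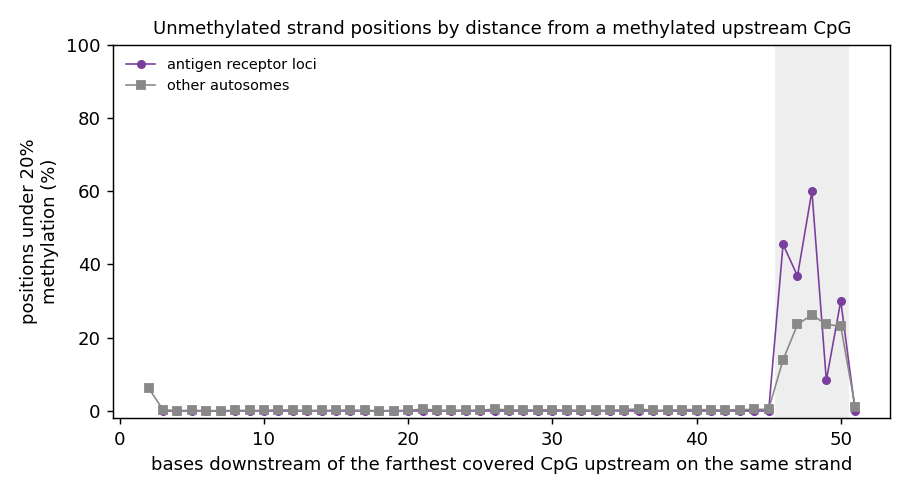
Percent of strand positions under 20% methylation (y axis) by the number of bases downstream of the farthest covered CpG upstream on the same strand (x axis), where the upstream CpG is over 80%; the shaded span marks 46 to 50 bases. In the loci 0 of 514 positions at 2 to 45 bases were under 20%, and 26 of 79 in the shaded span.

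The strands of a CpG differed at the same places. Of 125 window CpGs read on both strands in every library, 21 had strands more than 30 points apart in all 5 libraries, and each of the 21 included a strand position 46 to 50 bases downstream of another CpG. Of these, 18 formed 9 facing pairs 47 to 50 bases apart. No CpG had such a gap in both targeted libraries and in no wild-type library. When strand positions 46 to 50 bases downstream were left out, an alternative chosen after seeing the data, 855 CpGs stayed. The count of CpGs under 20% became 25, against 34 with them, and that from 20 to 80% became 63, against 92. Those 25 and 63 were 2.92% and 7.37% of window CpGs. Elsewhere on the autosomes the same setting gave 58.4% and 6.33%. None of the 25 was in Igk, Igl or Tcrg; 11 were in Igh, 6 in Tcra/Tcrd and 8 in Tcrb. The tiles in the range of 20 to 80% fell to 9 of 133, while both tiles under 20% and the Tcrb tile stayed low, at 5.71%, 0.0730% and 23.1% as means over libraries.

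Outside the 3 low tiles, 4 CpGs under 20% were not among the read-end positions, and these were chosen after their values were seen. None had a covered CpG within reach upstream on its strand, so their place in the read was not measured. At chr6:41041335 in Tcrb the libraries ran from 2.99% to 7.38%, on 127 to 201 reads, and its neighbour 71 bases away averaged 34.1%. The CpG at chr6:41087016 ran from 0.662% to 11.9%, while its neighbour 97 bases away averaged 91.3%. At chr6:41477449, with no other measured CpG within 1 kb, levels were 10.7% to 22.2%. In Tcra/Tcrd the CpG at chr14:54796146 ran from 3.85% to 15.8% on only 14 to 31 reads. Of these 4 CpGs, 3 are in Tcrb.

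The study compared targeted with wild-type libraries, and with all positions kept the means over CpGs overlapped between the groups at every locus. The windows together averaged 87.6% ± 0.809 (SD, n = 2) in targeted libraries, against 86.8% ± 0.282 (SD, n = 3) for wild type. The difference was 0.799 points, with an exact permutation p of 0.2 (two-sided) where the smallest possible is 0.1. It was 0.227 points without targeted library 1 and 1.37 points without targeted library 2. As a mean over tiles it was 0.878 points, exact permutation p = 0.1. Targeted library 1 was the highest, while targeted library 2, at 87.06%, lay just under wild-type library 3 at 87.09%. Igh averaged 86.9% ± 1.20 (SD, n = 2) against 86.2% ± 0.263 (SD, n = 3), exact permutation p = 0.4, and without targeted library 1 the difference was -0.123 points. Igk averaged 89.4% ± 0.749 against 88.7% ± 0.604 (SD, exact permutation p = 0.4), and differed by 0.142 points without targeted library 1. Igl stood at 91.5% ± 1.91 against 90.6% ± 0.406 (SD, exact permutation p = 0.7), and at -0.404 points without targeted library 1. Tcra/Tcrd had 89.0% ± 0.254 in the targeted and 88.0% ± 0.736 in the wild-type libraries (SD, exact permutation p = 0.3). Tcrb had 72.1% ± 1.83 against 70.3% ± 0.533 (SD, exact permutation p = 0.2), the widest of the 6 differences at 1.78 points with all libraries. Without targeted library 1 it was 0.488 points, under the 0.743 points of Tcra/Tcrd, and without targeted library 2 it was 3.08 points. As a mean over tiles Tcrb differed by 1.35 points, exact permutation p = 0.1. In Tcrg the means were 89.3% ± 0.721 and 89.4% ± 1.69 (SD, exact permutation p = 1), and without targeted library 1 the difference was 0.466 points. Adjusted over the 6 loci by Benjamini-Hochberg, these p-values ran from 0.6 to 1.

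**Figure D5:**
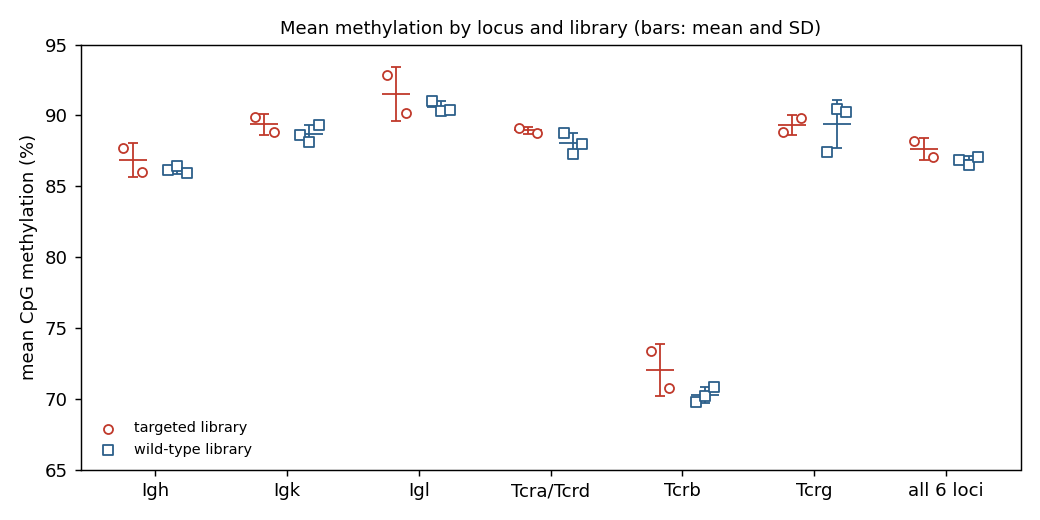
Mean CpG methylation (%, y axis, cut to 65 to 95%) of each antigen receptor locus in each library (x axis: locus). Circles are targeted and squares wild-type libraries, with the group mean and SD; with all positions kept the groups overlap at every locus, and Tcrb is the lowest at 69.8% to 73.4%.

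Without the strand positions at read ends the groups no longer overlapped over the windows together. The targeted libraries then had 90.3% and 89.1% and the wild-type libraries 88.9%, 88.6% and 89.0%, a difference of 0.852 points with an exact permutation p of 0.1. Tcrb and Tcra/Tcrd no longer overlapped either. Tcrb then had 76.6% and 73.69% in the targeted libraries, against 72.4%, 73.1% and 73.65% in wild type, a difference of 2.10 points (exact permutation p = 0.1, not adjusted over the loci). Tcra/Tcrd had 90.3% and 90.1% in the targeted libraries, against 89.99%, 88.8% and 89.1% in wild type, a difference of 0.903 points (exact permutation p = 0.2). The groups overlapped in the other 4 loci. With all positions kept but the 3 low tiles left aside, Tcrb and Tcra/Tcrd also did not overlap, each with an exact permutation p of 0.2. The windows together, on the other 871 CpGs, did not overlap either. The targeted libraries then had 90.5% and 89.58% and the wild-type libraries 89.4%, 89.0% and 89.52%. That difference was 0.747 points, with an exact permutation p of 0.1. A like gap was present at CpGs over 80% with all positions kept: 94.6% and 93.8% in the targeted libraries against 93.7%, 93.2% and 93.5% in wild type (exact permutation p = 0.1). Outside the loci that class differed by 0.661 points, against 0.683 points within them. Set against other CpGs of the same density make-up, the group difference in the loci was smaller by 0.137 points, exact permutation p = 0.8. Against all other autosomal CpGs it was larger by 0.249 points, exact permutation p = 0.4. Against the CpGs within 500 kb of the windows it was larger by 0.349 points, exact permutation p = 0.4. Neither of these last comparisons was weighted by density. The shares of window CpGs in the 3 classes overlapped between groups. CpGs under 20% made up 3.34% and 4.004% in the targeted libraries, against 3.89% to 4.004% in wild type, and those over 80% made up 86.2% and 84.4% against 84.5% to 85.9%.

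By edgeR's quasi-likelihood test, 0 of 139 tiles in the loci were called different; a call needed 10 points and an adjusted p below 0.05. Over all autosomal tiles 15 of 90368 were called, or 0.0166%. Of single CpGs in the loci 0 of 894 were called, against 67 of 757413 (0.00885%) on all autosomes, where a call needed 25 points. The smallest adjusted p was 0.79 for tiles and 0.876 for CpGs. At an unadjusted p under 0.05, 8 of 139 tiles passed, 7 higher and 1 lower in the targeted libraries, or 5.76% against 6.32% of all tiles, of which 5.34% were higher. The same count for CpGs was 26 of 894, 23 of them higher, or 2.91% against 2.97% of all, of which 2.29% were higher. Of these CpGs 106 had both targeted above all wild-type libraries, 11.9% against 10.6% of all, and 67 had both below, 7.49% against 4.99%. With limma on log2 ratios, 0 tiles and 0 CpGs of the loci were called, and 11 tiles and 50 CpGs passed an unadjusted p of 0.05. Tile differences in the loci ran from -6.58 to 8.09 points, both in Igh. The median tile difference was 0.752 points in the loci and 0.287 points over all tiles. All tiles are a background not matched for methylation: 29.5% of tiles elsewhere were under 20%, against 1.44% in the loci. At CpGs over 80% the group difference was 0.683 points in the loci and 0.661 points elsewhere.

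Both targeted libraries exceeded every wild-type library in 26 of the 139 tiles, 18.7% against 17.2% of all tiles, and lay below them in 13, 9.35% against 5.23%. These shares over all tiles were likewise not matched for methylation. The smallest p belonged to the Igh tile at chr12:114809001-114810000, with 97.8% and 97.0% in the targeted libraries, against 91.1%, 94.5% and 93.1% in wild type. Its difference of 4.53 points had an unadjusted p of 0.00906 and an adjusted p of 0.79 by edgeR. Next came chr14:54781001-54782000 in Tcra/Tcrd, at 97.3% and 96.8% against 95.5%, 93.6% and 93.1%, unadjusted p = 0.00996 by edgeR. In Igh the tile at chr12:117001001-117002000 had 97.1% and 95.2% against 92.4%, 91.8% and 93.6%. The tile with the smallest p in Tcrb, chr6:41212001-41213000, had 98.3% and 98.7% in the targeted libraries, against 95.3%, 96.4% and 94.5% in wild type. In Igk it was chr6:70230001-70231000, at 92.0% and 92.7% against 87.9%, 90.2% and 84.3%. The only tile with an unadjusted p under 0.05 that was lower, chr6:67544001-67545000 in Igk, had 93.1% and 93.0% in the targeted libraries, against 96.5%, 96.2% and 96.7% in wild type. Each of these tiles is over 80% in every library, and the groups do not overlap in any of them, which is what a small p selects.

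Among single CpGs the smallest p was that of chr6:41313776 in Tcrb, at 100% and 98.96% in the targeted libraries, against 90.1%, 95.5% and 93.7% in wild type, on 91 to 126 reads. Of the 10 CpGs with the smallest p, 8 lay above 80% in every library and were higher in the targeted libraries, by 4.15 to 10.3 points. The exceptions were chr6:70038121 in Igk, at 91.3% and 79.3% against 100%, 96.8% and 100% on as few as 17 reads, and chr13:19357365 in Tcrg. That gamma CpG, a read-end position, had 0% and 8.11% in the targeted libraries, against 0.971%, 0% and 0% in wild type. None of the 10 had an adjusted p under 0.876 by edgeR.

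The targeted libraries lacked no well-read stretch of the loci. Of 516 strand positions in the windows read 50 times or more by all 3 wild-type libraries, 0 lacked an entry in both targeted ones, which allows a share of up to 0.581%. In Igk this was 0 of 223 and in Tcrb 0 of 36, which allows up to 1.35% and 8.33%. On the other autosomes 368 of 864359 such positions (0.0426%) lacked one, and 22 of 824169 when chromosome 6 was left aside. Neither kappa nor beta, the 2 loci on chromosome 6, thus held any such position. They were not set against the rest of chromosome 6. The limit of 0.581% lies above the 0.0426% elsewhere, so the count does not set the loci apart from the other autosomes. In the other direction, 0 of 684 window positions read 50 times or more in both targeted libraries lacked an entry in all wild-type ones. Loss or rearrangement in a minority of cells would not be seen by this count. Nor would loss or rearrangement of a single allele in every cell, since the other allele would still give reads.

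Genes that act on these loci could be read at few promoters. Of 12 genes of the recombination machinery, the promoters of 4 could be placed and were measured in all libraries. Those were Xrcc4 and Lig4, which ligate broken ends, and Hmgb1 and Hmgb2, which bend DNA for the recombinase. All 4 were unmethylated, among promoters that could be placed only with at least 6 measured CpGs. Lig4 had 0.0435% and 0.172% in the targeted libraries, against 0.220%, 0% and 0.153% in wild type, and the other 3 stayed at or under 0.137% in every library. No CpG in them was called. Of 10 genes for receptor partners, such as Cd79a and Cd3e, none was placed. The labelled cell type could be set against its markers only at the Flt3 promoter, at 0.0784% and 1.45% in the targeted libraries, against 0% to 0.119% in wild type, and methylation there is no measure of expression.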

How the data were processed

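Per the labels' protocols, MspI fragments were end-repaired, joined to methylated adaptors, selected at 150 to 400 bp, treated with bisulfite and read from 1 end for 50 bases. The submitters' processing notes name Bismark and mm9 (NCBIM37); the Bismark version was not given in the sources used here. Per the file headers, the deposited tables hold, for the C of each CpG and strand, its coverage as a whole read count of at least 10 and the percent read as C and as T. Rounding recovered methylated reads, with 99.97% of entries within 0.01 of a whole number. Targeted libraries 1 and 2 held 122015958 and 151634492 reads summed over entries, and the wild-type libraries 140469056, 147303723 and 128994674.

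Strands were merged, the highest 0.1% of coverage per library was left out, and CpGs covered in all 5 libraries were kept. Library means are unweighted over CpGs and were compared over the 10 splits by an exact two-sided permutation test, smallest p 0.1. CpGs and tiles of 1000 bp (3 or more CpGs) were tested with edgeR 4.0.16 (quasi-likelihood, a factor per library, common dispersion) on all autosomes, with Benjamini-Hochberg adjustment over all of them. A read that covers several CpGs of a tile counts once for each. Without molecular identifiers, 95% Wilson intervals and limits for a count of 0 (3 reads over the depth) are for counting error alone. The code was tested on simulated data.

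Tiles named by rule are the 3 with the smallest p per window, all under 20%, and up to 10 from 20 to 80% by number of CpGs. Only part of them is described in the text. CpGs named by rule are the 10 with the smallest p. Promoters were placed where at least 6 measured CpGs coincided with their CpG spacing, with a lead of at least 3 over the next placement. Of 17819 promoters 8240 were placed, and 99.9% of neighbouring pairs kept RefSeq's order; this method was chosen after the files were seen. Windows, members and lists were chosen with earlier results of these data known. Other settings tried were each library left out, a replicate block, a minimum of 20 reads, no upper limit on coverage, read weighting, tile means, limma 3.58.1 with 1 read added to each count, other tile settings and no read-end positions. Figures were drawn with matplotlib 3.10.9.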

Additional observations from a re-analysis of the deposited data

How the results depend on the processing

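By edgeR or limma, 0 tiles and 0 CpGs of the loci were called under every alternative run, with 2 to 13 tiles at an unadjusted p under 0.05. The loci stayed above the other autosomes at a coverage minimum of 20, with no upper limit on coverage, without read-end positions and with each library left out in turn; the other alternatives were not run for that comparison. Several small group differences turned; the cause was not tested. The Tcrg difference, -0.0436 points in the report, was 0.398 points at a coverage minimum of 20 and 0.392 points with the replicate block. With each library left out in turn, the difference ran from -1.02 to 0.495 points in Tcrg, from -0.123 to 1.57 in Igh and from -0.404 to 2.30 in Igl. The shares of CpGs differed by -0.593 to 0.0742 points under 20%, by -0.408 to 0.704 from 20 to 80%, and by -0.779 to 1.001 over 80%. Against the other autosomes weighted to the density make-up of the loci, the group difference ran from -0.257 to 0.0215 points.

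Of the named tiles, 8 changed sign in some alternative. Leaving out 1 library gave -1.86 to 12.6 points for the tile at chr6:41493001-41494000, -2.39 to 3.10 for chr12:115617001-115618000, -6.09 to 4.18 for chr6:68312001-68313000, -1.09 to 4.80 for chr13:19454001-19455000, -0.378 to 1.26 for chr14:53679001-53680000, -3.33 to 4.93 for chr14:54851001-54852000 and -0.291 to 2.98 for chr16:19114001-19115000. Without read-end positions the tiles at chr6:68312001-68313000 and chr6:70427001-70428000 had 0.158 and 0.690 points.

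The libraries of a group share numbers with the other group only for 1 and 2, and the labels tie no number to a shared batch. Tile deviations in the loci correlated at -0.12 for the libraries numbered 1 and -0.16 for those numbered 2. The replicate block gave 0.926 points over all loci and changed no call. Coverage limits Igl most, with a median of 37.5 reads per CpG in wild-type library 1, and windows hold stretches without any measured CpG.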
